A study of Mus musculus with 11 samples.

Results

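Expression of the Slc25a genes, which encode the mitochondrial carrier family, was examined in the gonadal white adipose tissue (WAT) of 11 male C57BL/6J mice. Members were taken by gene symbol, as Slc25a followed by a number, and Slc25a1 and Slc25a20 were left out. This gave 37 of the 12787 genes with deposited values. A high fat diet (HFD) with 60% fat was given to all 11 mice for 20 weeks. The 5 HFD control mice received vehicle, while 0.06% w/w iodomethylcholine (IMC) was added for the 6 IMC-treated mice. IMC is a small molecule that blocks the gut bacterial lyase that makes trimethylamine (TMA) from choline. The age of these mice is not given in the sources used here, no mouse was on a low fat diet, and a further control library had been dropped by the authors for quality. The comparison asks how adipose gene expression differs when this bacterial pathway is inhibited in diet-induced obesity. Each mouse gave 1 library, with 22320022 to 25155366 reads on the listed genes.

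Mitochondrial carriers are small proteins that sit, with few exceptions, in the inner mitochondrial membrane. They exchange metabolites between the cytosol and the matrix: adenine nucleotides and phosphate for ATP export, di- and tricarboxylates, amino acids, cofactors and metals. In white adipocytes they are known for moving citrate, malate and reducing equivalents that feed fatty acid synthesis. Since the deposited values are mRNA levels, they say nothing directly about transport. All levels are given as log2 CPM (log2 of counts per 1000000 reads of the upper-quartile scaled library), and a log2 fold change is the mean of the IMC-treated mice minus that of the HFD control mice.

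IMC mice 2 and 6 stood apart from the other libraries, which was noticed after the values were seen. In both of them 95 listed genes (0.743%) lay over 0.5 log2 units above every other mouse, while no other pair among the 55 possible pairs had more than 4 such genes. Slc25a15 and Slc25a42 were among the 95 genes. Results that change without these mice are given in both ways.

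The markers of adipocytes were high in every library of this labelled adipose tissue, and their sum was 10733 to 15629 CPM in HFD control mice and 21472 to 25706 CPM in IMC-treated mice. Each of the 12 adipocyte markers was called higher. In contrast, 12 of 14 macrophage markers were called lower, with a sum of 10771 to 13165 CPM against 6828 to 9458 CPM, and 7 of 7 listed mast cell markers were called lower, at 507 to 1157 against 161 to 326 CPM. Of 9 progenitor and fibroblast markers 5 were called lower, and of 8 endothelial markers 2 were called higher. For comparison, 20.0% of all genes were called higher and 21.0% lower. None of the 10 erythroid markers was among the listed genes. Of 21 striated muscle markers 12 were not among the listed genes. The 9 listed markers summed to 36.7 to 56.5 CPM against 97.4 to 139 CPM. Of these 6 were called higher and 3 were not called, with log2 fold changes down to -0.27. Brown adipocyte markers summed to 20.3 to 28.3 against 29.5 to 41.0 CPM, with 3 of 6 listed markers called higher, and their defining gene Ucp1 was not among the listed genes. In bulk tissue fewer cells of a type and less RNA per cell cannot be told apart, and the part of these shifts in the carrier results was not tested.

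With IMC, 15 of the 37 carrier genes were expressed at a higher level and 5 at a lower level. The limma fit over all 12787 genes with Benjamini-Hochberg adjustment called 20.0% of all genes higher and 21.0% lower at the same threshold, an adjusted p of 0.05. Counted as shares, 40.5% of the carriers were higher and 13.5% lower. The median log2 fold change of the carriers was 0.12, and that of all genes was -0.03. For 12 carriers (32.4%) the 2 groups were free of overlap, 9 of them higher and 3 lower, against 23.1% of all genes. Changes were moderate in size: 9 of the 20 called carriers passed an absolute log2 fold change of 0.5, and 7 of those 9 were higher. Of the 17 carriers not called, 11 had a positive and 6 a negative difference. Without IMC mice 2 and 6, 11 carriers were called higher and 3 lower, against 16.2% and 16.9% of all genes.

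**Figure D1:**
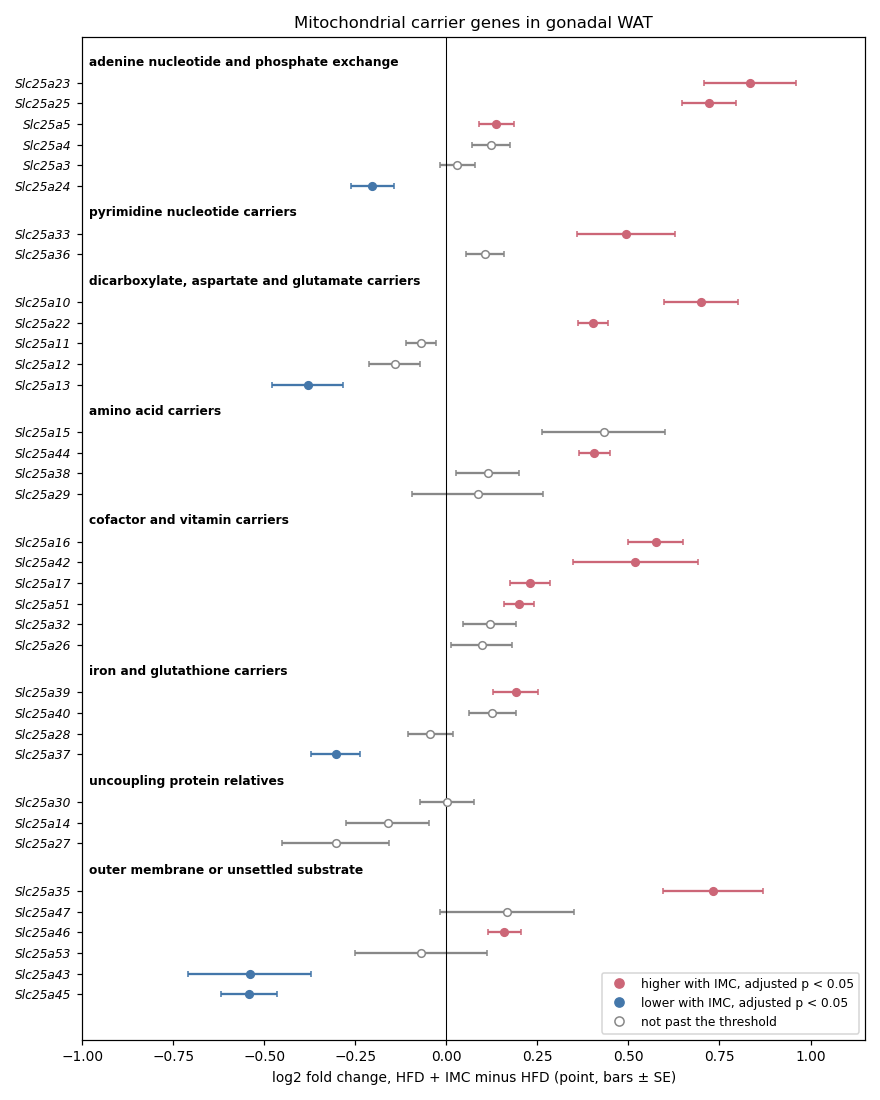
Log2 fold change between IMC-treated and HFD control mice (x axis) for 36 of the carrier genes, grouped by the role of the carrier. Points are the limma estimates, bars are ± SE, and filled points passed an adjusted p of 0.05. None of the cofactor and vitamin carriers drawn was called lower, and Slc25a23 shows the largest change, at 0.83.

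Another 8 carrier genes of the mouse were not among the listed genes and were not analysed here: Slc25a2, Slc25a18, Slc25a21, Slc25a31, Slc25a34, Slc25a41, Slc25a48 and Slc25a54. One of them, Slc25a48, encodes a choline carrier. The paper describes removing genes under 1 CPM in all samples. The number of genes it reports as left differs from the 12787 with deposited values. Absence of a gene is thus not shown to mean a level under 1 CPM, and the 37 carriers are those with values. The carriers are spread over 17 chromosomes.

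Per length, the 37 carriers taken by symbol were led by those of oxidative phosphorylation, by the dicarboxylate carrier and by a glutathione carrier. Levels between genes were compared as CPM per kb of annotated exon. Slc25a3, the phosphate carrier, stood at 159 CPM per kb in HFD control mice and 162 in IMC-treated mice. Slc25a10, the dicarboxylate carrier that exchanges malate and succinate for phosphate, went from 138 to 222 CPM per kb. Next came Slc25a39, a glutathione carrier (104 and 119), and the adenine nucleotide translocators Slc25a4 (95.6 and 104) and Slc25a5 (85.3 and 93.8). These 5 genes led by either measure of length, the union of exons or the longest transcript, but Slc25a3 and Slc25a10 changed places between the measures, so their order is not settled. At the low end, Slc25a53 (0.622 and 0.598 CPM per kb), Slc25a29 (0.860 and 0.931) and Slc25a47 (1.09 and 1.21) rested on at most 68 reads in any mouse.

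**Figure D2:**
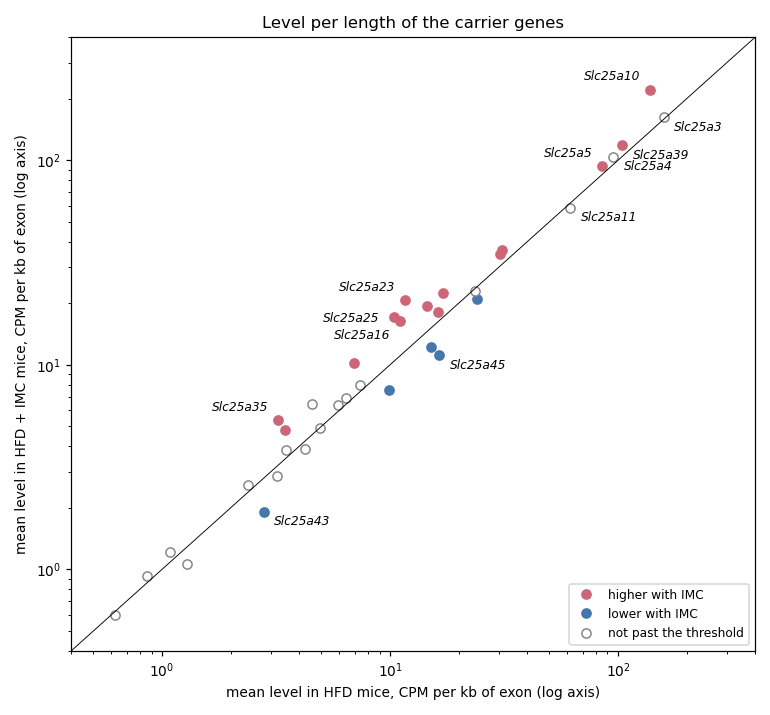
Mean level of 36 of the carrier genes in HFD control mice (x axis) and in IMC-treated mice (y axis), both as CPM per kb of exon on log axes, with a line of equal level. Filled points passed an adjusted p of 0.05. Slc25a10 lies above the line at 138 and 222 CPM per kb, while Slc25a3 lies on it at 159 and 162.

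The adenine nucleotide and phosphate carriers split. Among 6 listed members 3 were higher and 1 was lower in IMC-treated mice, and the largest changes belonged to the ATP-Mg/phosphate carriers, which load or unload the matrix adenine nucleotide pool in a calcium-dependent way. Slc25a23 (chr17:57043711-57059909) read 5.02, 5.54, 5.11, 5.13 and 5.54 log2 CPM in HFD control mice 1 to 5, and 5.67, 6.16 and 6.31 (lowest, median, highest) in IMC-treated mice. The groups did not overlap, although HFD mice 2 and 5 came close to the lowest IMC-treated mouse. The estimated log2 fold change of 0.83 (SE 0.13, adjusted p = 0.000293), or 1.78-fold, was the largest of the 37 carriers.

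Slc25a25 (chr2:32414487-32451470), a second ATP-Mg/phosphate carrier, read 5.15, 5.49, 5.41, 5.44 and 5.56 log2 CPM in the HFD control mice and 6.01, 6.11 and 6.33 in the IMC-treated mice. Every IMC-treated mouse was above every control, and the log2 fold change was 0.72 (SE 0.07, adjusted p = 3.5e-05). The gene interval overlaps that of Naif1, and the strand setting of the count is not given in the sources used here, so a share of its reads may belong to the neighbour. Slc25a24 (chr3:109123149-109168409), the third paralog, went the other way, from 6.41, 6.31, 6.53, 6.42 and 6.20 to 6.08, 6.19 and 6.24 log2 CPM. Its groups overlapped because HFD mouse 5 lay between the treated mice. For Slc25a24 the change was -0.20 (SE 0.06, adjusted p = 0.0144), and it was -0.16 (adjusted p = 0.0705) without IMC mice 2 and 6.

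Because these 3 paralogs diverged, the sequence before their transcription starts is shown here, from the RefSeq promoter table (build GRCm38.p6, the same assembly as mm10), up to 250 bases before the start and cut where an annotated exon or the gene itself begins. Capitals mark a match to a searched motif. Of the 3 windows of Slc25a25, the 1 with a match is printed. The window at its outermost start kept 0 bases after this cut, so an internal start is set beside the other 2 genes.
Slc25a23, chr17:57059910-57060113, minus strand: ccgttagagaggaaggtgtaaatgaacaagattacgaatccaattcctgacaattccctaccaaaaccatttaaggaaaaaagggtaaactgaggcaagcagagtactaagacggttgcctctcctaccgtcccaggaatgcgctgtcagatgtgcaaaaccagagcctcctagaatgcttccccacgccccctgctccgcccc
Slc25a24, chr3:109122899-109123148, plus strand: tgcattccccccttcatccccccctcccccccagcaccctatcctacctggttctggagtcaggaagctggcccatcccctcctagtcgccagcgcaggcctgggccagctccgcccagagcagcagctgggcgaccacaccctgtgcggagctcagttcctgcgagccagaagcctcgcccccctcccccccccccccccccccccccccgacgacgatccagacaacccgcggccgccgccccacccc
Slc25a25, internal start, chr2:32424067-32424316, minus strand: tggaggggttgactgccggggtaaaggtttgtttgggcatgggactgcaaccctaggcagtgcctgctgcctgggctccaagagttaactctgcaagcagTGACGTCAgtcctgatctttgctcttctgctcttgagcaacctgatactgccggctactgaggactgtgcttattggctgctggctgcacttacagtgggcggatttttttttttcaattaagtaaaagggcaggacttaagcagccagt

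The start used in these mice cannot be read from counts per gene, and Slc25a25 has 3 starts and Slc25a23 2 starts in the table. Searched on both strands of the 250 bases before each start were GCGCATGC (NRF1), AAGGTCA (ERR), CCGGAAG (GABPA), CACGTG (E-box) and TGACGTCA (cAMP response element), a list written after the values were seen. The start of Slc25a25 that is shown held TGACGTCA from 150 to 143 bases before it, and its other 2 windows, 1 of them also at an internal start, held no match to any of the 5 motifs. No searched motif matched in the windows shown for Slc25a23 and Slc25a24. Of the 37 carriers 28 had an entry in the table, and 2 of them (7.14%), Slc25a25 and Slc25a36, held TGACGTCA, against 2.995% of 9749 listed genes with an entry and 1.55% of all windows. The E-box was held by 5 of the 28 (17.9%, against 9.86% of the listed genes), GABPA by 4 (14.3% against 15.3%), and NRF1 and ERR by 0 (against 4.97% and 3.46%). Such matches describe the letters of these windows and nothing more.

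The classical ATP exchangers moved little. Slc25a5, the main adenine nucleotide translocator of proliferating and many other cells, read 6.60, 6.72, 6.73, 6.80 and 6.77 log2 CPM in HFD control mice and 6.75, 6.88 and 6.94 in IMC-treated mice, with overlap between the groups. It was called higher at 0.14 (SE 0.05, adjusted p = 0.0353), but 10 of 19 alternatives ended the call, with an adjusted p up to 0.120. Among them was leaving out any of HFD mice 1, 2 and 3 or of IMC mice 1, 2, 4 and 6. Leaving out IMC mice 2 and 6 together also ended the call of Slc25a5. Slc25a4, its paralog of muscle and heart, read 7.52, 7.47, 7.48, 7.55 and 7.59 against 7.53, 7.64 and 7.77 log2 CPM. That difference of 0.12 (SE 0.05, adjusted p = 0.0799) was not called, and leaving out IMC mouse 5 gave an adjusted p of 0.0415. For these close paralogs, which have related sequences elsewhere in the genome, reads could have been lost or shared. Slc25a3 read 8.28, 8.29, 8.21, 8.28 and 8.30 log2 CPM in the controls and 8.22, 8.29 and 8.46 in IMC-treated mice. At a difference of 0.03 (SE 0.05, adjusted p = 0.643) it was not called, on 6829 to 8526 reads per mouse, and the sign turned to -0.01 without IMC mice 2 and 6.

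Of the pyrimidine nucleotide carriers, which supply the matrix with precursors for mitochondrial DNA and RNA, 1 of 2 was higher. Slc25a33 read 2.55, 2.92, 2.29, 2.56 and 3.06 log2 CPM in HFD control mice against 3.02, 3.11 and 3.42 in IMC-treated mice. HFD mouse 5 lay within the IMC range. The log2 fold change was 0.49 (SE 0.13, adjusted p = 0.011). Slc25a36 averaged 4.97 ± 0.05 (SD, n = 5) and 5.08 ± 0.08 (SD, n = 6) log2 CPM and was not called (limma adjusted p = 0.12), except without IMC mouse 3 (adjusted p = 0.0469).

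The dicarboxylate carrier Slc25a10 (chr11:120491837-120501161) showed the largest change among the highly expressed carriers. Its values were 7.80, 8.19, 8.01, 8.08 and 8.45 log2 CPM in HFD control mice 1 to 5, and 8.66, 8.79 and 9.05 in IMC-treated mice. All IMC-treated mice exceeded all controls, which amounts to 0.70 on the log2 scale (SE 0.10, adjusted p = 0.000223), or 1.62-fold. Among the controls, the order of the mice by Slc25a10 was also their order by summed adipocyte markers, which were 10733, 15222, 11600, 12309 and 15629 CPM in mice 1 to 5. The same order of the controls was seen for Slc25a22, Slc25a23, Slc25a25, Slc25a35 and Slc25a44. Among the IMC-treated mice none of these genes, nor Slc25a10, had the full order of the markers. For Slc25a10, Slc25a22 and Slc25a35, IMC mice 1 and 6 were highest and IMC mice 3, 4 and 5 lowest, as for the markers. This was not so for Slc25a23, Slc25a25 and Slc25a44. The part of adipocyte content in all these carriers was not tested. The share of Slc25a10 in all reads on the carriers was 10.8% to 15.2% in controls and 16.7% to 19.1% in IMC-treated mice.

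Slc25a11, the oxoglutarate carrier that works beside it in moving malate, read 6.70, 6.65, 6.81, 6.70 and 6.71 log2 CPM in controls and 6.58, 6.65 and 6.70 in IMC-treated mice. The groups overlapped and the difference of -0.07 (SE 0.04, adjusted p = 0.207) was not called. Its interval overlaps the listed gene Rnf167. Slc25a22, a glutamate carrier, read 5.53, 5.64, 5.60, 5.63 and 5.69 against 5.97, 6.03 and 6.06 log2 CPM, clear of each other. The change of Slc25a22 was 0.40 (SE 0.04, adjusted p = 3.5e-05), from tight groups.

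Both aspartate/glutamate carriers of the malate-aspartate shuttle had lower means in IMC-treated mice, and 1 of them was called. Slc25a13 (citrin) averaged 4.94 ± 0.20 (SD, n = 5) log2 CPM with vehicle and 4.56 ± 0.16 (SD, n = 6) with IMC, without overlap (log2 fold change -0.38, SE 0.10, limma adjusted p = 0.00775). Slc25a12 (aralar) averaged 4.76 ± 0.06 and 4.61 ± 0.14 log2 CPM, a difference of -0.14 (SE 0.07, adjusted p = 0.119). The role group of dicarboxylate, aspartate and glutamate carriers thus held 2 higher, 1 lower and 2 uncalled genes. These shares of 40% higher and 20% lower stood against 20.0% and 21.0% over all genes.

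**Figure D3:**
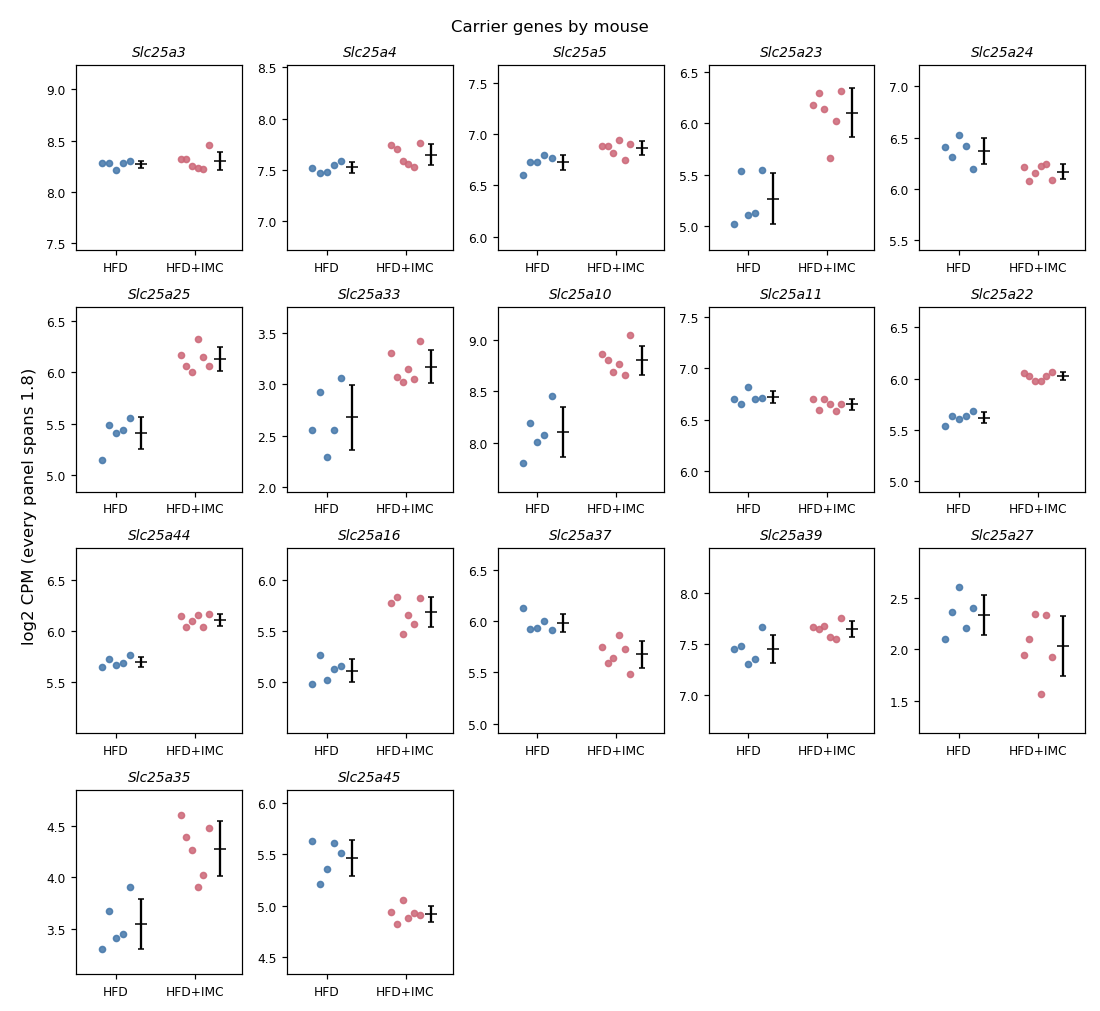
Log2 CPM (y axis, each panel spanning 1.8 units) of 17 carrier genes in the 5 HFD control mice and the 6 IMC-treated mice. Each point is a mouse, and the black marks are the group mean ± SD. Slc25a25, Slc25a22 and Slc25a44 show groups clear of each other, while the points of Slc25a3 and Slc25a11 overlap.

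Of 4 listed amino acid carriers 1 was called (25%), against 40.9% of all genes. Slc25a44, which carries branched-chain amino acids and is known from brown fat, read 5.65, 5.73, 5.67, 5.69 and 5.77 log2 CPM in HFD control mice and 6.04, 6.13 and 6.17 in IMC-treated mice. The gap between the groups was wider than the range within either, and the log2 fold change was 0.41 (SE 0.04, adjusted p = 3.5e-05). Without IMC mice 2 and 6 it was also 0.41 (adjusted p = 0.000269).

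Slc25a15, the ornithine carrier of the urea cycle, was nearly level among HFD control mice, from 3.92 to 4.05 log2 CPM. In IMC mice 1 to 6 it read 4.32, 4.92, 4.11, 4.08, 4.01 and 4.97, so mice 2 and 6 set most of the difference of 0.43 (SE 0.17, adjusted p = 0.0556). Without them the difference was 0.16 (adjusted p = 0.118), and leaving out IMC mouse 3, 4 or 5 alone, or median-of-ratios scaling, brought the call past the threshold, with an adjusted p down to 0.0293. Slc25a38, a glycine carrier of heme synthesis (log2 fold change 0.11, adjusted p = 0.314), and Slc25a29, a carrier of basic amino acids (0.09, adjusted p = 0.731), were not called by limma.

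The cofactor and vitamin carriers held the most calls, with 5 of 7 higher and 0 lower, and a median log2 fold change of 0.23. Over all genes 20.0% were higher and 21.0% lower. As a share, 71.4% of this group was called. The share was 66.7% each for the adenine nucleotide and phosphate group and for the last group below, and 40.9% for all genes. These groups hold few genes, and the roles were chosen with earlier results known. Slc25a16, a carrier linked to coenzyme A, read 4.98, 5.26, 5.03, 5.13 and 5.16 log2 CPM in HFD control mice and 5.47, 5.71 and 5.83 in IMC-treated mice, with the groups clear of each other. Slc25a16 changed by 0.57 (SE 0.07, adjusted p = 0.000109).

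Slc25a42, which exchanges coenzyme A and adenosine phosphates, repeated the pattern of Slc25a15. It read 4.19, 4.58, 4.26, 4.60 and 4.68 log2 CPM in the controls and 4.57, 5.42, 4.78, 4.81, 4.75 and 5.55 in IMC mice 1 to 6. The difference was 0.52 (SE 0.17, adjusted p = 0.0278), and 0.27 (adjusted p = 0.0726) without IMC mice 2 and 6. Leaving out HFD mouse 1, HFD mouse 3 or IMC mouse 2 alone also ended the call (adjusted p up to 0.0730). Mice 2 and 6 also had the highest sums of 3 of the lists: brown adipocyte markers (39.0 and 41.0 CPM, 35.5 or less in the others), endothelial markers (698 and 745, 636 or less in the others) and mitochondrial content (1475 and 1560, 1468 or less in the others). Their sums of macrophage markers were the lowest, 7207 and 6828 CPM, with 7921 or more in the others. The part of these differences in Slc25a42 was not tested.

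Slc25a17, the peroxisomal carrier of coenzyme A, FAD and NAD, averaged 5.74 ± 0.05 (SD, n = 5) and 5.97 ± 0.11 (SD, n = 6) log2 CPM, without overlap (log2 fold change 0.23, SE 0.05, limma adjusted p = 0.00485). Slc25a51, which imports NAD into mitochondria, averaged 7.07 ± 0.04 and 7.27 ± 0.06 log2 CPM, again without overlap (0.20, SE 0.04, limma adjusted p = 0.00197). Both changes are small against Slc25a16 but larger than the SD of either group. For Slc25a17 the groups nearly touched, with the highest control at 5.82 and the lowest IMC-treated mouse at 5.84 log2 CPM. Slc25a32, a carrier of folate and FAD (0.12, adjusted p = 0.211), and Slc25a26, the S-adenosylmethionine carrier (0.10, adjusted p = 0.374), were not called.

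Of the 4 iron and glutathione carriers 1 was lower and 1 was higher, near the shares over all genes (21.0% and 20.0%). Slc25a37 (mitoferrin 1), which brings iron to heme and iron-sulfur cluster synthesis, read 6.13, 5.92, 5.93, 6.00 and 5.91 log2 CPM in HFD control mice and 5.49, 5.68 and 5.86 in IMC-treated mice. The highest IMC-treated mouse was below the lowest control, and the log2 fold change was -0.30 (SE 0.07, adjusted p = 0.00312). The gene overlaps 3 predicted genes, and of 10 erythroid markers 0 were among the listed genes. Its paralog Slc25a28 (mitoferrin 2) averaged 5.18 ± 0.10 and 5.14 ± 0.09 log2 CPM, with a difference of -0.04 (SE 0.06, adjusted p = 0.593).

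Slc25a39, needed for glutathione import into mitochondria, read 7.45, 7.48, 7.31, 7.36 and 7.66 log2 CPM in HFD control mice and 7.55, 7.65 and 7.76 in IMC-treated mice. HFD mouse 5 was higher than the median IMC-treated mouse. The call (log2 fold change 0.19, SE 0.06, adjusted p = 0.0268) ended without HFD mouse 3, HFD mouse 4 or IMC mouse 6, without IMC mice 2 and 6 (0.16, adjusted p = 0.096) and under total-count scaling. Slc25a40, its paralog, averaged 3.28 ± 0.05 and 3.41 ± 0.08 log2 CPM and was not called (0.13, adjusted p = 0.133).

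The relatives of the uncoupling proteins held 0 calls among 3 genes. Slc25a27 (UCP4), best known from neurons, read 2.10, 2.36, 2.61, 2.21 and 2.40 log2 CPM in HFD control mice and 1.56, 2.02 and 2.34 in IMC-treated mice. The groups overlapped, on 73 to 145 reads per mouse, and the difference of -0.30 (SE 0.15, adjusted p = 0.116) was not called. Slc25a14 (UCP5) differed by -0.16 (adjusted p = 0.281) and Slc25a30 by 0.00 (SE 0.08, adjusted p = 0.986).

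The last group joins an outer membrane protein and carriers whose substrate is less settled, and it held 2 higher and 2 lower of 6 listed genes. Slc25a35 read 3.30, 3.67, 3.41, 3.45 and 3.91 log2 CPM in HFD control mice and 3.90, 4.33 and 4.61 in IMC-treated mice. HFD mouse 5 and the lowest IMC-treated mouse were at nearly the same level. The log2 fold change was 0.73 (SE 0.14, adjusted p = 0.00118), the second largest of the 37 carriers, and the gene overlaps Rangrf. Slc25a46, an outer membrane protein tied to mitochondrial shape, averaged 6.15 ± 0.04 (SD, n = 5) and 6.31 ± 0.08 (SD, n = 6) log2 CPM (0.16, SE 0.04, limma adjusted p = 0.0121), with an adjusted p of 0.0645 without IMC mice 2 and 6.

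Slc25a45 (chr19:5877801-5885768) was the called carrier with the largest decrease beside Slc25a43. It read 5.63, 5.21, 5.36, 5.61 and 5.51 log2 CPM in HFD control mice 1 to 5 and 4.83, 4.92 and 5.06 in IMC-treated mice. The groups were clear of each other, and the log2 fold change was -0.54 (SE 0.08, adjusted p = 0.000176). Slc25a43 averaged 1.61 ± 0.28 and 1.07 ± 0.28 log2 CPM on 37 to 95 reads per mouse, a difference of -0.54 (SE 0.17, adjusted p = 0.0216). That call ended without HFD mouse 2, HFD mouse 3 or IMC mice 2 and 6 together (-0.38, adjusted p = 0.0971). Slc25a47, known from liver (0.17, adjusted p = 0.497), and Slc25a53 (-0.07, adjusted p = 0.787) were not called.

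Ratios of related carriers within a mouse do not depend on the scaling of the library, and 10 pairs were tested by a two-sided exact permutation test over the 462 assignments of mice to groups, adjusted over the 10 pairs. In 3 pairs the balance differed between the groups, without overlap. The log2 ratio of Slc25a10 to Slc25a11 rose from 1.39 ± 0.26 (SD, n = 5) to 2.16 ± 0.14 (SD, n = 6), a difference of 0.77 (exact p = 0.00216, adjusted p = 0.0108). This is the smallest p the design allows. The ratio of Slc25a24 to Slc25a25 fell from 0.96 ± 0.24 to 0.04 ± 0.08 (exact p = 0.00216, adjusted p = 0.0108), and that of Slc25a24 to Slc25a23 fell from 1.10 ± 0.36 to 0.07 ± 0.30 (exact p = 0.00433, adjusted p = 0.0144). Both share Slc25a24. In HFD control mice Slc25a24 mRNA thus exceeded each paralog in every mouse, by a log2 ratio of at least 0.64 for Slc25a25 and 0.65 for Slc25a23, while in IMC-treated mice the log2 ratios spread around 0, from -0.10 to 0.15 and from -0.23 to 0.56. These ratios are of CPM and not per length.

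Without IMC mice 2 and 6 the differences were 0.70, -0.92 and -0.89, beside 0.77, -0.92 and -1.04 with all mice. Each then had an adjusted p of 0.0529 by the exact permutation test of 5 against 4 mice, so 0 pairs were called. With fewer mice this test has fewer assignments, so its smallest possible p is larger. Among the pairs not called, Slc25a33 to Slc25a36 differed by 0.39 (adjusted p = 0.0866 by the exact test), Slc25a37 to Slc25a28 by -0.26 (adjusted p = 0.126) and Slc25a12 to Slc25a13 by 0.24 (adjusted p = 0.216). The other 4 pairs differed by -0.16 to 0.06. The pair of Slc25a18 and Slc25a22 was not tested because Slc25a18 is not among the listed genes.

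**Figure D4:**
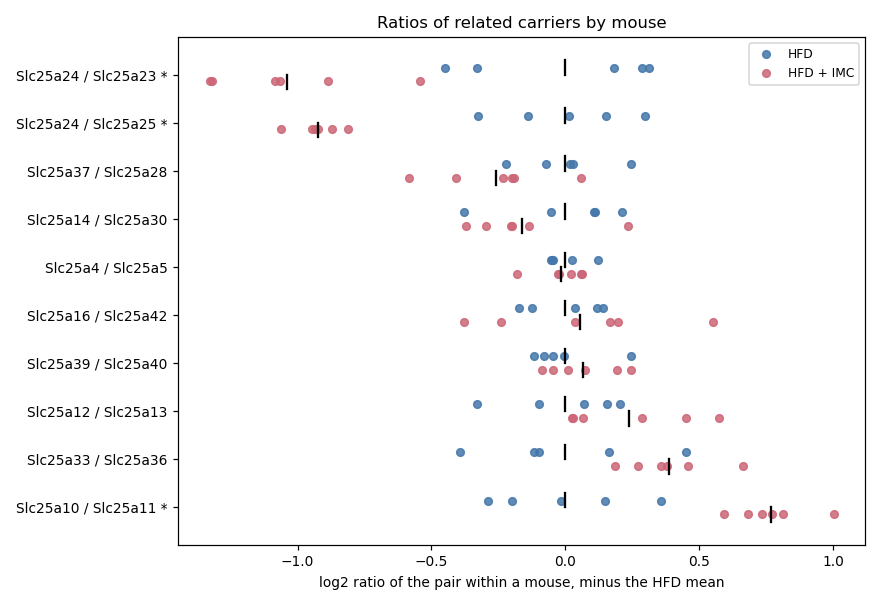
Log2 ratio of 2 related carriers within each mouse, minus the HFD mean of that pair (x axis), for the 10 pairs tested (y axis). Points are mice, vertical bars are group means, and an asterisk marks an adjusted p under 0.05 by the exact permutation test. In the 3 marked pairs the IMC-treated mice lie apart from the controls.

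Summed over the 37 carriers, the mRNA level ranged from 2061 to 2301 CPM in HFD control mice and from 2399 to 2761 CPM in IMC-treated mice. This sum is dominated by a few genes, and Slc25a10 and Slc25a3 gave the largest shares of it. Slc25a3 held 13.7% to 15.1% of the carrier sum in controls and 12.2% to 12.7% in IMC-treated mice. By CPM, Slc25a3 led the 37 carriers in HFD mice 1 to 4, and Slc25a10 in HFD mouse 5 and all 6 IMC-treated mice. This ranking leaves out Ucp2, a relative under another symbol, at 10.36 ± 0.12 log2 CPM (SD, n = 5) in controls. The sum is a description and was not tested.

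A wider set joined relatives of the family, genes that work beside the carriers and genes of general mitochondrial content. It gave 22 higher and 9 lower of 51 listed genes, beside 20.0% higher and 21.0% lower over all genes. The counts of the short lists below rest on few genes each. Among relatives of the family under other names or outside the rule, 4 of 6 listed genes were higher and 1 was lower. Ucp3, an uncoupling protein best known from muscle, rose by 0.87 on the log2 scale (SE 0.11, limma adjusted p = 0.00011), and Slc25a20, the carnitine-acylcarnitine carrier, rose by 0.35 (SE 0.07, adjusted p = 0.00111). The gene that was lower, Ucp2, named after its values were seen, stood at 10.36 ± 0.12 log2 CPM (SD, n = 5) in controls and fell by 0.37 (SE 0.08, limma adjusted p = 0.00327). The summed level of these 6 genes was 1880 to 2156 CPM in controls and 1772 to 2002 CPM in IMC-treated mice. Other transporters of the inner membrane gave 8 higher and 3 lower of 17, led by Sfxn5 (log2 fold change 0.59) and Ghitm (0.36). Of 4 outer membrane channels 0 were higher and 1, Vdac2, was lower (-0.22, adjusted p = 0.00162).

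Cytosolic and mitochondrial enzymes of the NADH shuttles gave 3 higher and 1 lower of 6. Gpd1, the cytosolic glycerol-3-phosphate dehydrogenase, rose by 0.84 (SE 0.09, limma adjusted p = 4.52e-05), and Got1, the cytosolic aspartate aminotransferase of the malate-aspartate shuttle, fell by 0.33 (adjusted p = 0.000746). Of the nucleotide energy partners 2 of 6 were higher and 2 lower, and Nme4, a mitochondrial nucleoside diphosphate kinase, was at -0.57. Genes of general mitochondrial content gave 5 higher and 1 lower of 12, with a median of 0.20, a sum of 1158 to 1268 CPM in controls and 1351 to 1560 CPM in IMC-treated mice, and Lonp1 (0.38) and Cs (0.42) in front. The sum of mitochondrial content moved in the same direction as the carrier sum, while that of the family relatives above was not higher. The part of mitochondrial content in the carrier results was not tested.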

How the data were processed

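RNA was isolated from gonadal WAT and sequenced from directional mRNA libraries, 1 per mouse, and mice were grouped by their labels (5 HFD, 6 HFD + IMC). The authors trimmed reads with Trim Galore, aligned them to mm10 with STAR, counted them per gene, removed genes under 1 CPM in all samples, scaled by the upper quartile with edgeR and deposited log2 CPM. The same table holds the authors' own fold changes, mean levels, likelihood ratios, p-values and FDR, which were not used.

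Log2 CPM of 12787 genes were tested with limma 3.58.1 (R 4.3.3, eBayes with trend, Benjamini-Hochberg over all genes). The fit was also run on simulated counts with known changes. That simulation had a single dispersion, total-count scaling and far fewer changed genes than these data. It thus cannot give the error rates here. Reads recovered from the CPM steps (100% whole within 0.02 reads) gave 22320022 to 25155366 reads per mouse and served alternative scalings. They cover counting error only. The limma p-values set the group difference of a gene against the variation between mice, moderated over all genes.

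Every member but 1 is named, and 1 gene of the other lists is also not reported here. Full values go to the smallest p of each role group, the 6 largest changes, the 5 highest levels per length and the called pairs. Of the other lists, at most 2 genes with the smallest p are named. Members, roles, lists and pairs were chosen with earlier results of these data known. Exon lengths came from GENCODE vM21, and coordinates and promoters from RefSeq (GRCm38.p6). Alternatives covered the variance trend, low values, scaling, the added constant, voom and each mouse left out, and later IMC mice 2 and 6.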

Additional observations from a re-analysis of the deposited data

Results flagged for a closer look

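A single mouse lay far from the others of its group in 4 of 94 groups of values tested by Dixon's criterion, and chance gives such a gap in about 1 of 20 groups. Slc25a3 was low in HFD mouse 3, at 8.21 log2 CPM with the next mouse at 8.28. Slc25a26 was high in IMC mouse 1, at 3.97 log2 CPM with the next mouse at 3.71. Slc25a29 was low in IMC mouse 4, at 0.14 log2 CPM with the next mouse at 0.90. The log2 ratio of Slc25a4 to Slc25a5 was low in IMC mouse 4, at 0.62 with the next mouse at 0.77. None of these 3 genes and this pair was called in the comparison of the groups.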

How the results depend on the processing

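Of the 15 carriers called higher, 11 kept their call under all 19 alternatives, and of the 5 called lower 3 did. Calls of Slc25a5, Slc25a39, Slc25a42, Slc25a46, Slc25a24 and Slc25a43 ended somewhere, and Slc25a4, Slc25a15 and Slc25a36 were called somewhere. Leaving out 1 mouse gave 12 to 17 carriers higher, 4 to 5 lower and 3 to 4 called pairs. The other planned settings gave 13 (total-count scaling) to 16 (median-of-ratios scaling) higher and 5 lower. Total-count scaling moved the median of all genes from -0.03 to -0.06 and the higher share of all calls from 48.8% to 40.3%. Without IMC mice 2 and 6, 3 carriers were lower and 0 pairs were called, in a design with fewer mice. Signs turned only for differences near 0 that were not called: Slc25a3 (-0.0015 under total-count scaling, -0.0123 without IMC mice 2 and 6, -0.000238 to 0.0461 where 1 mouse was left out), Slc25a30 (-0.0301 under total-count scaling, -0.0145 without IMC mice 2 and 6, -0.0280 to 0.0481 where 1 mouse was left out), Slc25a53 (-0.152 to 0.0242, above 0 without HFD mouse 4 or IMC mouse 3), the ratio of Slc25a4 to Slc25a5 (0.0453 with medians, 0.0159 without HFD mouse 1, 0.0187 without IMC mouse 4) and that of Slc25a16 to Slc25a42 (-0.0430 to 0.142, below 0 without IMC mouse 1). The cause was not tested. No paired analysis was possible because the labels number the mice in 1 series without shared numbers. Depth limits Slc25a29, Slc25a43, Slc25a47 and Slc25a53, with under 100 reads in every mouse.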
